A study of Arabidopsis thaliana with 22 samples.

Results

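The comparison described here is the difference between the 6 h responses of dark-grown Arabidopsis thaliana seedlings to red and to white light. It was taken as the log2 change from darkness to red light minus the log2 change from darkness to white light, gene by gene over all genes, from 8 of the 22 RNA-seq libraries of the series: red 6 h dark, red 6 h, white 6 h dark and white 6 h, with 2 libraries each. All seedlings were Col-0, the common laboratory accession. Growth was in the dark for 6 days, near 20 °C, on diluted MS medium with sucrose, after a short exposure to white light that induced germination. The light groups were then exposed to continuous red or continuous white light for 6 h, and each colour had its own control group, which stayed in the dark for the same 6 h. Nothing in the labels says whether the 2 libraries of a group came from separate cultures, so p-values measure the spread between these libraries, which may be technical. The intensity of the light is not given in the sources used here, so colour and intensity cannot be told apart. Dark libraries were sequenced 4 to a pool and light libraries 2 to a pool, in both colours.

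Seedlings that germinate in the dark follow an etiolated programme with a long hypocotyl, closed cotyledons and undeveloped plastids, and light switches them to photomorphogenesis. Red light is sensed by phytochromes, which remove the growth-promoting PIF transcription factors and inhibit the COP1/SPA ubiquitin ligase, so that regulators such as HY5 accumulate. White light also holds the blue wavelengths that cryptochromes and phototropins absorb. Both kinds of signal meet on the same regulators, and their known targets include antenna proteins, flavonoid enzymes, the clock and hormone genes that control elongation.

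Most of the genes that differed between the colours had a smaller change in red light than in white light. Of 23011 genes tested, 627 (2.72%) had a difference of responses at an adjusted p below 0.05, here named called. In 427 of them (1.86%) the red minus white difference was below 0, called lower, and in 200 (0.869%) it was above 0, called higher. With library totals as the only scaling, 277 of 606 calls were higher, a share of 45.7% against 31.9% with the TMM scaling used here. Among the 427 genes called lower, 240 rose in white light and were not called in red light, 160 rose in both, 16 rose in white and fell in red, 10 fell in red and were not called in white, and 1 fell in both. Their median response was a log2 change of 0.20 in red and 1.35 in white. The 200 genes called higher followed the opposite pattern: 111 fell in white and were not called in red, 39 fell in both, 32 rose in red and were not called in white, 11 rose in red and fell in white, and 7 rose in both. Their median log2 change was 0.04 in red and -1.10 in white. Leaving out 1 library at a time gave between 276 calls (without white 6 h dark replicate 1) and 523 calls (without red 6 h replicate 1), and 203 genes, 33 higher and 170 lower, were called in all 8 of these fits. The count moved by more than 1.5 times also without red 6 h dark replicate 1 (283), red 6 h dark replicate 2 (326), red 6 h replicate 2 (292), white 6 h dark replicate 2 (294) and white 6 h replicate 1 (412). Every gene called with all libraries kept its direction in each of the 8 fits. These are whole seedlings, in which fewer cells of a type and less RNA per cell cannot be told apart.

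Within each colour the response was broad. In red light 6378 genes were called (27.7%), of which 4055 rose (17.62%) and 2323 fell (10.1%). In white light 9573 were called (41.6%), of which 5348 rose (23.2%) and 4225 fell (18.4%). Across the 23011 genes, which do not count as independent observations, the red and white changes had a Pearson correlation of 0.730. The genes that rose in both colours numbered 3035, which is 74.8% of those that rose in red and 56.8% of those that rose in white. The genes that fell in both numbered 1837, 79.1% of those that fell in red and 43.5% of those that fell in white. The red count was 4082 without red 6 h dark replicate 1, 3957 without red 6 h dark replicate 2 and 3938 without red 6 h replicate 2.

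**Figure D1:**
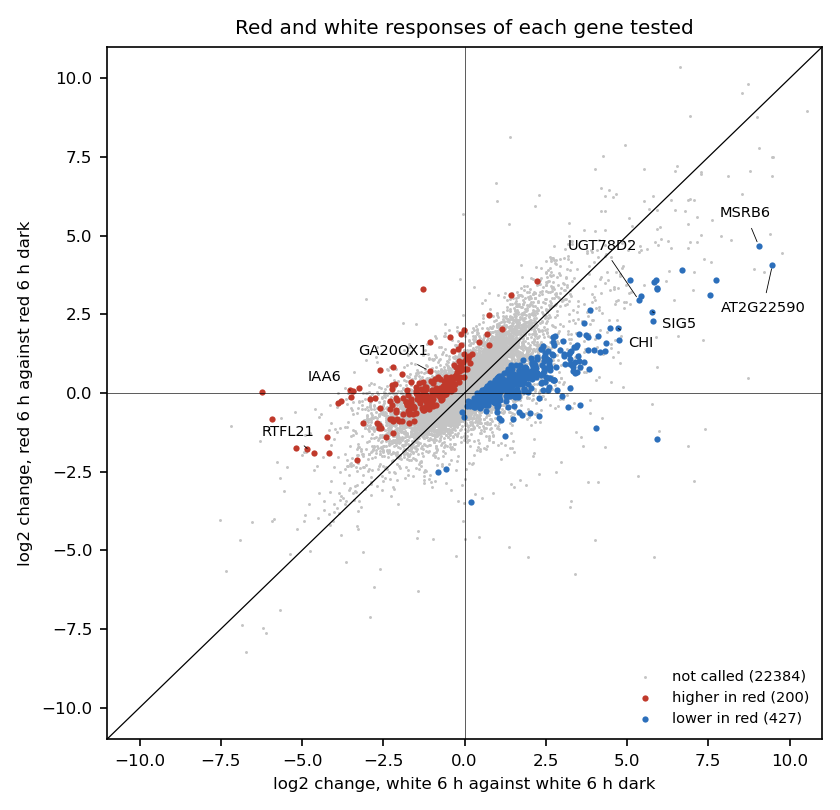
Log2 change from darkness to 6 h of red light (vertical axis) against that to 6 h of white light (horizontal axis) for each of the 23011 genes tested; the diagonal marks equal responses. The 427 genes called lower in red lie below the diagonal, mostly at positive white changes, and the 200 called higher lie above it, mostly at negative white changes.

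Most of the called genes also differed between the illuminated libraries themselves. A direct comparison of the red and white light libraries called 2802 genes (12.2%), 1321 of them higher in red (5.74%) and 1481 lower (6.44%), a share higher of 47.1% against 57.1% with library totals alone. The count was between 1296 (without red 6 h replicate 2) and 1960 (without red 6 h replicate 1) when 1 light library was left out, with 1610 without white 6 h replicate 2 and 1452 without white 6 h replicate 1. With all libraries it called 425 of the 427 genes lower in the difference of responses, and 197 of the 200 higher ones, in the same direction. The red and white light libraries were without overlap for all 427 lower and all 200 higher genes, and for 12509 of the 23011 tested (54.4%). A lack of overlap, given below for single genes, is thus frequent among all genes and adds nothing to a call. Between the red and white dark libraries 0 genes (0%) were called by edgeR, with 816 at an unadjusted p below 0.05, and DESeq2 called 1; 1 was called by edgeR without red 6 h dark replicate 1. Among the genes called in the difference of responses, 30 of the 200 higher ones (15%) and 26 of the 427 lower ones (6.09%) had an unadjusted p below 0.05 between the dark libraries, against 3.55% of all genes; the dark libraries enter the difference by which these genes were called. At the onset of the series, before any light, the red and white libraries gave 0 calls (0%), with 1034 at an unadjusted p below 0.05 and 0 by DESeq2. Total counts of the 8 libraries ran from 35000731 to 91978902, higher in the 4 light libraries (78741336 or more) than in the 4 dark ones (63601212 or less), so depth and pool size cannot be told apart from light within either response.

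Light-signalling genes were mostly lower in red light. Of 39 measured, 8 were called lower in red and 0 higher, against 1.86% and 0.869% of all genes tested. In the direct comparison of the light libraries 22 were lower and 4 higher, against 6.44% and 5.74% of all genes. The median difference was -0.71, against 0.04 over all genes tested. The genes called lower were SIG5 (AT5G24120, chr5:8157151-8160343), RUP2 (AT5G23730), RUP1 (AT5G52250), BBX22 (AT1G78600), BBX28 (AT4G27310), HY5 (AT5G11260, chr5:3593335-3595073), SPA4 (AT1G53090) and BBX24 (AT1G06040). Between 4 and 10 members were called lower when 1 library was left out: 4 without red 6 h dark replicate 2 or white 6 h dark replicate 1, and 5 without white 6 h replicate 2. BBX28, a B-box protein, was the only one of the 8 that fell in red light, with a log2 change of -2.42, and it was not called in white light at -0.58. RUP1, the close relative of RUP2, rose in white light (2.72) and was not called in red (0.41). SPA4, a partner of COP1, and BBX24, a B-box repressor, rose in both, by 0.82 and 1.26 in red and by 2.11 and 2.46 in white.

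SIG5, a sigma factor that directs the plastid RNA polymerase, had 3.16 and 2.97 CPM (read counts scaled to library size) in the red dark libraries and 20.1 and 16.6 CPM after red light, against 2.27 and 2.95 CPM in the white dark libraries and 116 and 175 CPM after white light. Both colours raised it from a similar dark level, and the white light libraries stood far above the red ones without overlap. The log2 change was 2.58 in red and 5.78 in white, a difference of -3.20 ± 0.37 (SE, adjusted p = 0.000375). RUP2, a repressor of the UV-B photoreceptor UVR8, went from 1.67 and 2.32 CPM to 5.37 and 7.41 CPM in red and from 1.46 and 1.99 CPM to 44.9 and 49.0 CPM in white. Its difference was -3.06 ± 0.46 (SE, adjusted p = 0.00239), again with both groups raised and no overlap between the light libraries. BBX22, a B-box protein that acts with HY5, went from 15.9 and 17.2 CPM to 49.6 and 45.5 CPM in red and from 14.9 and 18.6 CPM to 181 and 192 CPM in white, a difference of -1.95 ± 0.21 (SE, adjusted p = 0.000234). All of these were called in each of the 8 fits that left out 1 library.

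HY5, the bZIP factor at the centre of photomorphogenesis, rose in white light and was not called in red. It had 19.97 and 25.9 CPM in red dark, 25.2 and 22.2 CPM in red, 24.2 and 35.7 CPM in white dark and 78.0 and 110.3 CPM in white. The red light values lay within the range of the dark values, and both white light values lay above every other library. The log2 change was 0.05 in red (adjusted p = 0.9) and 1.65 in white (adjusted p = 5.06e-05), a difference of -1.6 ± 0.31 (SE, adjusted p = 0.0127); the call on HY5 was lost in 4 of the 8 fits that left out 1 library (-1.91 to -1.34), and held without red 6 h dark replicate 1 or red 6 h replicate 1 or white 6 h dark replicate 2 or white 6 h replicate 1. HYH (AT3G17609), its close homologue, rose in both colours, with 6.33 and 7.62 CPM in red and 35.8 and 39.1 CPM in white light. Its dark values, 0.480 and 0.960 CPM in the red and 0.946 and 2.3 CPM in the white control, overlapped, and the difference of responses was -1.2 ± 0.64 (SE, adjusted p = 0.367), not called. AT3G52740, entered in the light-signalling list as BIC1, is left uncharacterized by the annotation. In the red series it rose from 1 and 2 reads in the dark to 2.44 and 2.63 CPM in light. In the white series it rose from 4 and 9 reads to 17.5 and 16.8 CPM. Its difference of responses, -0.92 (adjusted p = 0.727), was not called, while the light libraries themselves differed by -2.75 (adjusted p = 5.82e-05).

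Among 14 photoreceptor genes, 2 were called lower in red and 0 higher, against 1.86% and 0.869% of all genes. The median difference was -0.11. PHYB (AT2G18790, chr2:8139756-8144461), the main red-light receptor of light-grown plants, had 116 and 120.5 CPM in red dark and 112 and 121 CPM in red light, with 115 and 118 CPM in white dark and 201 and 206 CPM in white light. The dark and red light libraries overlapped, and white light alone stood above them. The log2 change was -0.02 in red and 0.80 in white, a difference of -0.82 ± 0.11 (SE, adjusted p = 0.000785) that held in every fit with 1 library left out. CRY3 (AT5G24850), a cryptochrome of the DASH type found in organelles, went from 3.27 and 3.71 CPM to 11.5 and 14.1 CPM in red and from 4.3 and 5.54 CPM to 44.0 and 68.6 CPM in white. Its difference was -1.64 ± 0.35 (SE, adjusted p = 0.0209), with both colours raising it; the call on CRY3 was lost in 5 of the 8 fits that left out 1 library (-1.92 to -1.29), and held without red 6 h replicate 2 or white 6 h dark replicate 2 or white 6 h replicate 1. PHYA (AT1G09570), the phytochrome that is abundant in the dark, fell in both colours, with a log2 change of -1.65 in red and -1.85 in white, and the difference of 0.19 ± 0.26 (SE, adjusted p = 0.770) was not called. CRY1 (AT4G08920), the main blue-light receptor for de-etiolation, was between 127 and 170 CPM in all 8 libraries, and its difference of 0.36 (adjusted p = 0.22) was not called either.

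The 250 bases before the start of 3 genes that differed between the colours are shown for the G-box CACGTG, with capitals for each match. HY5 and PIF factors are known to bind this core element. All 3 are from the named genes that hold a match. Many other named genes, among them SIG5, RUP2, HY5, CHI, IAA6 and HAT2, hold none in this window. PHYB and ELIP1 (AT3G22840) were called lower in red and IAA19 (AT3G15540) higher.
PHYB, chr2:8139506-8139755, plus strand: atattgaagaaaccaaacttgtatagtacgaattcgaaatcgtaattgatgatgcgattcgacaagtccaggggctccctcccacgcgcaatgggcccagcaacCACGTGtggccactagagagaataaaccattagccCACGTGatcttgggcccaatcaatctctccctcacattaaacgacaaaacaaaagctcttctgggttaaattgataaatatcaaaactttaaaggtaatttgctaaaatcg
ELIP1, chr3:8085670-8085919, minus strand: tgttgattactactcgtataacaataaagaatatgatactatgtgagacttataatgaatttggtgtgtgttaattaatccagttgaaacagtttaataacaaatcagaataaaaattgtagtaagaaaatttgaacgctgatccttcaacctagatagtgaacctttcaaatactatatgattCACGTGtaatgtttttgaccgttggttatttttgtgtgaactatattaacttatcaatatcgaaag
IAA19, chr3:5263751-5264000, plus strand: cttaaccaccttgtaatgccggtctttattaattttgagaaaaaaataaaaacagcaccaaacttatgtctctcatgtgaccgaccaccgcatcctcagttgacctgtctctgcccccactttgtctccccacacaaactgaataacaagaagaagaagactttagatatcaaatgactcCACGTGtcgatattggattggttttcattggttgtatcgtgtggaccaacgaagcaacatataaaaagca
Sequences and coordinates are RefSeq's, on build TAIR10.1, and read 5′ to 3′ on the strand of the gene. The G-box is its own reverse complement, so 1 search covers both strands. It was present before 54 of the 424 genes called lower that had a window (12.7%), before 21 of 193 called higher (10.9%), before 1607 of 21872 tested genes (7.35%) and before 1780 of all 27443 windows (6.49%). The evening element AAAATATCT, searched on both strands, was present before 15 of the 424 (3.54%), 3 of the 193 (1.55%) and 541 of the 21872 tested (2.47%). A match describes these letters and is not evidence of binding.

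Early flavonoid genes had the largest share of called members among the 23 lists described here. These enzymes make flavonol and anthocyanin pigments from phenylalanine and shield tissue from light. Of 15 early enzymes, 9 were called lower in red and 0 higher, against 1.86% and 0.869% of all genes, and 6 were not called. In the direct comparison of the light libraries 14 were lower, against 6.44% of all genes. Of the 9, PAL1 (AT2G37040), PAL2 (AT3G53260), C4H (AT2G30490) and 4CL3 (AT1G65060) belong to the phenylpropanoid entry. CHI (AT3G55120, chr3:20430059-20431597) and CHIL (AT5G05270) belong to the chalcone steps. The others were the sugar-transfer genes UGT78D2 (AT5G17050) and AT1G06000, and RHM1 (AT1G78570). The median log2 change was 2.05 in red and 3.88 in white, with a median difference of -1.98. The summed level of the list was 1604 and 1314 CPM in red dark and 1719 and 1568 CPM in red light, against 1452 and 1334 CPM in white dark and 6743 and 5581 CPM in white light. The sums in red light were close to those in the dark, and both sums in white light stood far above all others. A sum follows its most abundant members, and 10 of the 15 genes were called as rising in red light. Between 6 and 9 members were called when 1 library was left out; 6 were called without red 6 h replicate 2, white 6 h dark replicate 1 or 2, or white 6 h replicate 1.

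CHI, chalcone isomerase, had 3.55 and 3.35 CPM in red dark and 12.9 and 15.8 CPM in red light, and 3.89 and 4.78 CPM in white dark and 115 and 117 CPM in white light. Its difference was -2.68 ± 0.34 (SE, adjusted p = 0.000703). UGT78D2, which adds a sugar to flavonols and anthocyanidins, went from 3.0 and 3.31 CPM to 22.7 and 26.0 CPM in red and from 3.05 and 3.35 CPM to 135 and 129 CPM in white, a difference of -2.41 ± 0.32 (SE, adjusted p = 0.00101). Both rose in red light and further in white, and neither had overlapping light libraries. AT1G06000, annotated as a UDP-glycosyltransferase, went from 9.06 and 8.44 CPM to 21.2 and 20.3 CPM in red and from 9.59 and 9.02 CPM to 87.3 and 87.0 CPM in white, a difference of -1.98 ± 0.27 (SE, adjusted p = 0.00104); an antisense gene overlaps nearly its whole length, and the strand setting of the counts is not given in the sources used here. The calls on CHI, UGT78D2 and AT1G06000 held in all 8 fits that left out 1 library. Smaller overlaps with a neighbour on the opposite strand touch several genes described further on. They include SEP2 (AT2G21970) by 109 bases, BBX14 (AT1G68520) by 329 bases, EXPA18 by 46 bases, SCPL10 by 21 bases and CHS by 2 bases. CHS (AT5G13930), chalcone synthase, the first committed enzyme, had 2.08 and 19.8 CPM in red dark, 180.3 and 238 CPM in red, 8.54 and 18.7 CPM in white dark and 2540 and 1960 CPM in white. The light groups did not overlap, but the first red dark library was far below the second, and the difference of -3.10 ± 1.07 (SE, adjusted p = 0.148) was not called. Without red 6 h dark replicate 2 it was -0.71, and without red 6 h dark replicate 1 it was -3.97 and called.

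**Figure D2:**
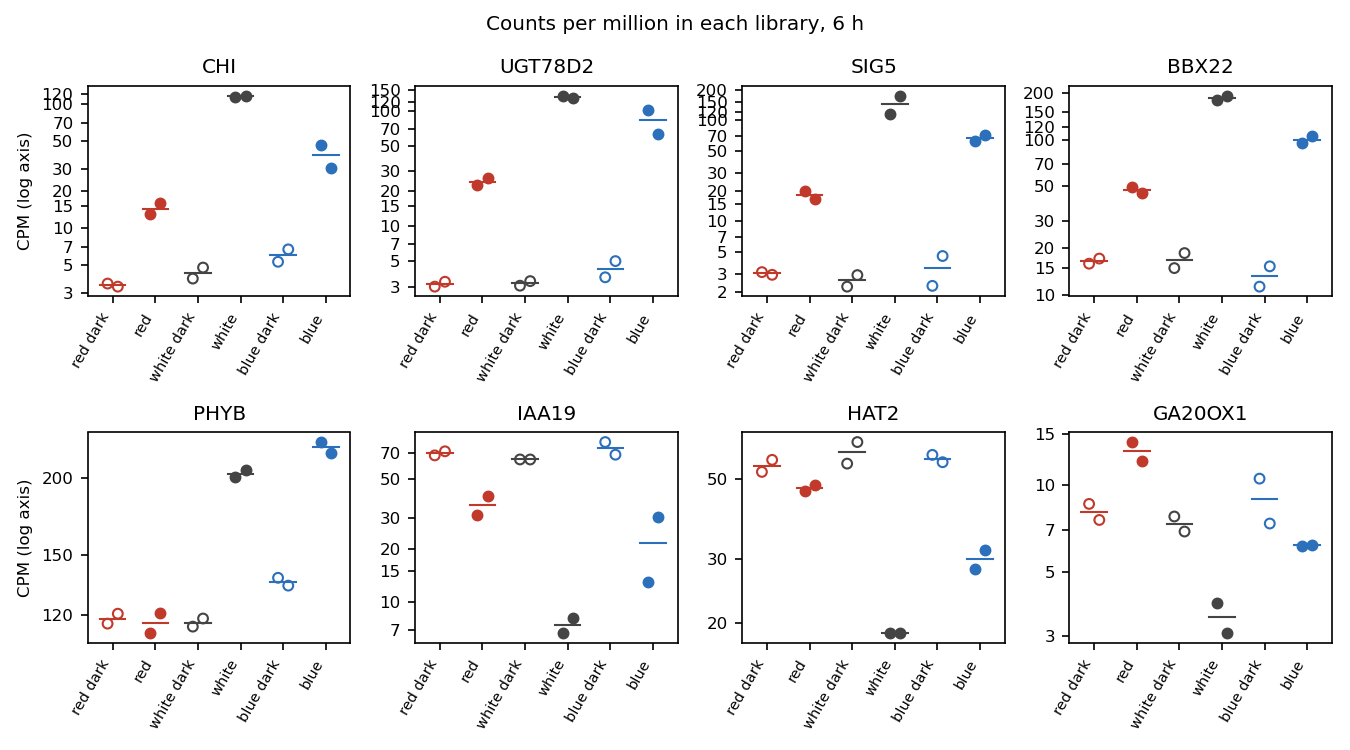
CPM on a log axis for 8 genes in each library of the red, white and blue series at 6 h; open circles are dark libraries, filled circles light libraries, and lines mark the mean of 2. CHI, UGT78D2, SIG5 and BBX22 are highest in white light and lower in red, PHYB is raised in white and blue light and not in red, and IAA19, HAT2 and GA20OX1 are lowest in white light.

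Of the 9 late anthocyanin enzymes, 0 were called in either direction by edgeR, while DESeq2 and the fit with the 8 libraries alone each called 2 lower. All 9 rose in both colours, with a median log2 change of 5.81 in red and 6.47 in white, and all 9 differences were below 0 with a median of -0.93. The median became 0.44 without red 6 h dark replicate 2, so its direction rested on that library. SCPL10 (AT2G23000), a serine carboxypeptidase-like acyltransferase, had the smallest p of the list, with 30.04 and 24.1 CPM in red and 82.6 and 62.4 CPM in white light and a difference of -1.41 (adjusted p = 0.0778). Among 13 flavonoid regulators 1 was called lower, against 1.86% of all genes. It was LBD39 (AT4G37540), a repressor of anthocyanin synthesis, at -0.84 ± 0.20 (SE, adjusted p = 0.0405). The call on LBD39 was lost in all 8 fits that left out 1 library (-0.94 to -0.75). MYB113 and MYB114 had too few counts to be tested. TT8 (AT4G09820) and MYB90 (AT1G66390), activators of the anthocyanin branch, differed by -3.76 and -3.41 and were not called.

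Photoprotection genes divided into a few with large differences and a rest without calls. ELIP1 and its relatives bind pigments in thylakoids under excess light. Of 8 such genes, 2 were called lower in red and 0 higher, against 1.86% and 0.869% of all genes. ELIP1 had 2.36 and 4.09 CPM in red dark and 12.6 and 19.002 CPM in red light, against 3.11 and 8.94 CPM in white dark and 279.7 and 408 CPM in white light. White light libraries exceeded red ones by a wide margin, and the difference was -3.51 ± 0.84 (SE, adjusted p = 0.0389); the call on ELIP1 was lost in 7 of the 8 fits that left out 1 library (-4.50 to -2.98), and held without white 6 h dark replicate 2. SEP2, a stress-enhanced protein of the same family, went from 23.96 and 26.6 CPM to 35.6 and 42.5 CPM in red and from 21.6 and 26.3 CPM to 122 and 135 CPM in white, a difference of -1.79 ± 0.23 (SE, adjusted p = 0.000714) that held in each fit with 1 library left out. Of 14 genes of reactive oxygen and high light, 2 were called lower, against 1.86% of all genes. UVR3 (AT3G15620), a DNA photolyase, was at -1.47 ± 0.34 (SE, adjusted p = 0.0361). SAPX (AT4G08390), the stromal ascorbate peroxidase, was at -0.64 ± 0.12 (SE, adjusted p = 0.0110). The call on UVR3 was lost in 7 of the 8 fits that left out 1 library (-1.78 to -1.23), and held without white 6 h dark replicate 2. The call on SAPX was lost without red 6 h dark replicate 1 (difference -0.63) and without white 6 h dark replicate 1 (difference -0.63).

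Heat-shock genes showed a large median difference and few calls. Of 13 chaperones and heat-shock factors measured, 2 were called lower and 0 higher, against 1.86% and 0.869% of all genes, and 11 were not called. In white light 12 of the 13 rose and in red 1, against 23.2% and 17.62% of all genes. The median log2 change was 0.23 in red and 2.82 in white, and all 13 differences were below 0 with a median of -2.46. Their summed level was 317 and 347 CPM in the red light libraries and 747 and 1858 CPM in the white ones, so the second white library was far above the first and both were above the red ones. HSP70 (AT3G12580), a cytosolic chaperone, went from 99.5 and 121 CPM to 185 and 193 CPM in red and from 66.0 and 57.5 CPM to 523 and 1239 CPM in white. The white light libraries lay above the red ones but were themselves far apart, and the difference of responses was -3.06 ± 0.63 (SE, adjusted p = 0.0184). The call on HSP70 was lost in 6 of the 8 fits that left out 1 library (-3.55 to -2.32), and held without red 6 h dark replicate 1 or white 6 h replicate 1. ATHSP22.0 (AT4G10250), a small heat-shock protein, was at -2.45 ± 0.60 (SE, adjusted p = 0.0447). The call on ATHSP22.0 was lost in 7 of the 8 fits that left out 1 library (-2.93 to -1.76), and held without red 6 h dark replicate 1. No member was called without red 6 h dark replicate 2, red 6 h replicate 1 or 2, white 6 h dark replicate 1 or white 6 h replicate 2, where the median was between -2.71 and -1.75, and 5 were called without white 6 h replicate 1. DESeq2 called 10 members lower.

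Photosynthesis genes had differences above 0. Their products form the photosystems and antennae that a greening seedling must build. All 46 measured members rose in red light and 42 rose in white, against 17.62% and 23.2% of all genes. Their median log2 change was 3.43 in red and 2.27 in white. Of the 46 differences 45 were above 0 and the median was 1.34, against 0.04 over all genes, but 0 were called in either direction. The summed level was 4300 and 4107 CPM in red dark and 35756 and 53919 CPM in red light, against 6710 and 7883 CPM in white dark and 30663 and 26770 CPM in white light. The dark controls of the white series were thus the higher ones, and the red light libraries the higher of the light ones. The median of the list was 0.63 between the light libraries and -0.62 between the dark ones, and -0.72 between the red and white libraries at the onset. In the direct comparison of light libraries 3 members were higher in red and 1 lower, against 5.74% and 6.44% of all genes. A fit with the 8 libraries alone called 21 members higher, DESeq2 called 13, and 1 was called without red 6 h replicate 1.

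LHCB1.4 (AT2G34430), an antenna protein of photosystem II, had 8.35 and 6.08 CPM in red dark and 782 and 1221 CPM in red light, against 17.59 and 21.8 CPM in white dark and 369 and 270.5 CPM in white light. Red light libraries were above white ones and red dark libraries below white dark ones, and the difference was 3.10 ± 0.79 (SE, adjusted p = 0.0507), just short of a call. LHCB2.2 (AT2G05070) had 647 and 832 CPM in red and 389 and 346 CPM in white light, with a difference of 1.68 ± 0.57 (SE, adjusted p = 0.138), not called. The LHCB1 and LHCB2 genes are near-identical copies among which reads may have been divided by the counting, so single members are uncertain. Of 18 Calvin cycle genes, 0 were called, and all 18 differences were above 0 with a median of 0.64. The list's median was -0.59 between the dark libraries and 0.13 between the light ones. GAPA-2 (AT1G12900), a chloroplast glyceraldehyde 3-phosphate dehydrogenase subunit, had the smallest p of that list, with a difference of 0.99 (adjusted p = 0.189).

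Among 27 chlorophyll and tetrapyrrole genes 1 was called, FC1 (AT5G26030, chr5:9096451-9099185), a share near the 2.72% of all genes, and the median difference was 0.77. FC1 encodes a ferrochelatase, which makes haem rather than chlorophyll. It had 52.0 and 46.4 CPM in red dark, 61.4 and 51.9 CPM in red, 51.0 and 46.2 CPM in white dark and 96.2 and 101 CPM in white. Only the white light libraries stood apart, and the difference of -0.82 ± 0.14 (SE, adjusted p = 0.00445) ran against the direction of the other 26 members and held in each fit with 1 library left out; the gene overlaps its neighbour HDA2 by 34 bases and the miRNA gene MIR860 by 126 bases. PORA (AT5G54190), the light-sensitive protochlorophyllide reductase of etiolated plastids, fell in white light from 541 and 561 CPM to 5.10 and 63.6 CPM. In red light it had 64.2 and 53.8 CPM after 344 and 256 CPM in the dark. The first white light library lay far below the red ones and the second within their range, and the difference of 1.66 ± 1.17 (SE, adjusted p = 0.520) was not called. Without white 6 h replicate 2 it was 4.40 and called, and without white 6 h replicate 1 it was 0.77. Of 15 carotenoid genes 0 were called, with a median of 0.15; the smallest p was that of BCH1 (AT4G25700), a beta-carotene hydroxylase, at -1.22 (adjusted p = 0.0608).

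**Figure D3:**
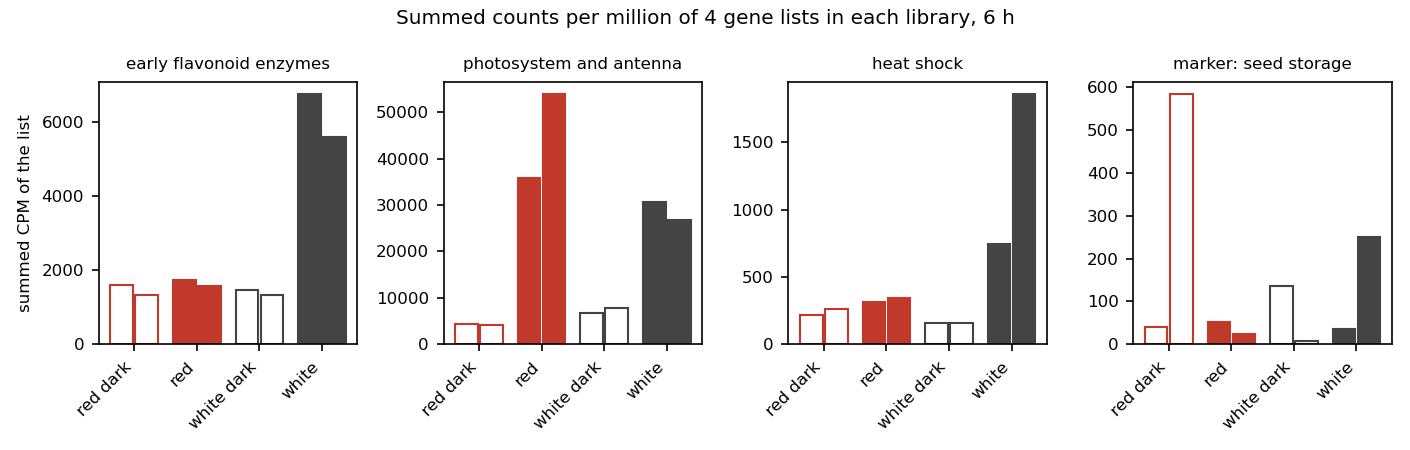
Summed CPM of 4 gene lists in each of the 8 libraries; open bars are dark libraries and filled bars light libraries, 1 bar per library. The sum of the early flavonoid enzymes is high only in white light, although 10 of the 15 members rose in red light. Photosystem and antenna genes are highest in red light. Heat-shock genes are highest in the second white light library, and seed storage genes in the second red dark library.

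Genes of auxin and cell elongation held most of the listed calls that were higher in red. The 9 called members of the auxin and elongation lists fell in white light, and 2 of them, IAA19 and XTH19 (AT4G30290), also fell in red, by less. Auxin drives hypocotyl growth in the dark, Aux/IAA proteins repress its response and are induced by it, and GH3 enzymes conjugate it to amino acids. Of 29 auxin genes, 4 were called higher and 0 lower, against 0.869% and 1.86% of all genes. In white light 17 fell and in red 8, against 18.4% and 10.1% of all genes. The median difference was 0.66. IAA6 (AT1G52830, chr1:19672476-19673652), an Aux/IAA repressor, had 7.5 and 6.90 CPM in red dark and 8.06 and 7.32 CPM in red light, against 8.57 and 6.77 CPM in white dark and 0.557 and 0.767 CPM in white light. It was low only after white light, and the difference was 3.61 ± 0.57 (SE, adjusted p = 0.00297), called in every fit with 1 library left out. IAA19, a related repressor linked to hypocotyl growth, fell in both colours, from 68.0 and 71.7 CPM to 31.4 and 40.1 CPM in red and from 64.5 and 64.4 CPM to 6.70 and 8.12 CPM in white. Its difference was 2.15 ± 0.44 (SE, adjusted p = 0.0168); the call on IAA19 was lost in 6 of the 8 fits that left out 1 library (1.97 to 2.32), and held without red 6 h replicate 1 or white 6 h replicate 2. GH3.3 (AT2G23170) and GH3.5 (AT4G27260) differed by 2.05 (adjusted p = 0.0146) and 1.27 (adjusted p = 0.0127). The call on GH3.3 was lost in 4 of the 8 fits that left out 1 library (1.78 to 2.35), and held without red 6 h dark replicate 2 or red 6 h replicate 1 or white 6 h dark replicate 1 or white 6 h replicate 1. The call on GH3.5 was lost in 4 of the 8 fits that left out 1 library (1.1 to 1.42), and held without red 6 h dark replicate 2 or red 6 h replicate 1 or white 6 h dark replicate 1 or white 6 h replicate 2. Between 1 and 4 members of the list were called when 1 library was left out, with 1 without red 6 h dark replicate 1, red 6 h replicate 2 or white 6 h dark replicate 2, and 2 without white 6 h replicate 1. The SAUR genes of the list include near-identical neighbours and none was called.

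Of 15 genes of shade response and cell elongation, 5 were called higher and 0 lower, against 0.869% and 1.86% of all genes. The median difference was 1.01. The 5 were the homeodomain-leucine zipper genes HAT1 (AT4G17460), HAT2 (AT5G47370, chr5:19216271-19218007) and HAT3 (AT3G60390), which vegetative shade induces, PRE1 (AT5G39860), a small bHLH protein that promotes elongation, and XTH19, an enzyme that remodels cell wall xyloglucan. HAT2 had 52.2 and 56.3 CPM in red dark and 46.3 and 48.1 CPM in red light, and 55.0 and 63.1 CPM in white dark and 18.8 and 18.8 CPM in white light. Red light libraries lay slightly below the dark ones and white light libraries far below. The log2 change was -0.20 in red (adjusted p = 0.265) and -1.65 in white, a difference of 1.45 ± 0.18 (SE, adjusted p = 0.000548). HAT3 and HAT1 had the same pattern, with differences of 1.4 (adjusted p = 0.00290) and 1.26 (adjusted p = 0.00760), and all 3 were called in each fit with 1 library left out. PRE1 differed by 1.71 (adjusted p = 0.00873) and XTH19 by 1.62 (adjusted p = 0.0365). Between 4 and 5 members were called when 1 library was left out.

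Gibberellin genes differed in both directions. Of 17 measured, 2 were called higher in red and 2 lower, against 0.869% and 1.86% of all genes. GA20OX1 (AT4G25420, chr4:12990851-12992585) and GA20OX2 (AT5G51810), which carry out late steps of gibberellin synthesis, were the 2 called higher, and GA2OX1 (AT1G78440), which inactivates the hormone, and GID1B (AT3G63010), one of its receptors, were the 2 called lower. GA20OX1 had 8.60 and 7.57 CPM in red dark and 14.1 and 12.1 CPM in red light, against 7.78 and 6.91 CPM in white dark and 3.90 and 3.08 CPM in white light. It rose in red and fell in white, each past the threshold, and the difference was 1.77 ± 0.28 (SE, adjusted p = 0.00323). GA2OX1 went from 0.229 and 0.201 CPM to 2.59 and 1.81 CPM in red and from 0.351 and 0.304 CPM to 17.3 and 22.1 CPM in white, a difference of -2.57 ± 0.42 (SE, adjusted p = 0.00402). It rose in both colours, more in white, from 10 and 9 reads in red dark and 13 and 20 reads in white dark. The calls on GA20OX1 and GA2OX1 held in each fit with 1 library left out. GA20OX2 differed by 0.88 (adjusted p = 0.0431). GID1B fell in red with a log2 change of -0.45 and rose in white with one of 0.28, a difference of -0.74 ± 0.14 (SE, adjusted p = 0.0101); the call on GID1B was lost without white 6 h dark replicate 1 (difference -0.67).

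Of 15 jasmonate genes 1 was called higher in red, against 0.869% of all genes: AOS (AT5G42650), an enzyme of jasmonate synthesis. It had 31.3 and 32.3 CPM in red dark, 44.97 and 44.3 CPM in red, 24.3 and 27.9 CPM in white dark and 22.7 and 21.2 CPM in white. It rose in red light and was not called in white. The difference was 0.74 ± 0.15 (SE, adjusted p = 0.0152); the call on AOS was lost in 5 of the 8 fits that left out 1 library (0.63 to 0.83), and held without red 6 h replicate 1 or white 6 h dark replicate 1 or white 6 h replicate 1. JAZ8 had too few counts to be tested. ACS5 (AT5G65800), which makes the precursor of ethylene, fell from 32.4 and 31.1 CPM to 7.57 and 9.52 CPM in red and from 26.7 and 27.7 CPM to 1.04 and 1.98 CPM in white. Both colours lowered it, white light further, and the difference was 2.26 ± 0.52 (SE, adjusted p = 0.0319). The call on ACS5 was lost in 6 of the 8 fits that left out 1 library (1.88 to 2.81), and held without red 6 h replicate 1 or white 6 h replicate 2.

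Clock genes were mostly below 0 with few calls. Of 22 measured, 2 were called lower, against 1.86% of all genes. In 19 of them the difference was below 0, against 10523 of all 23011 genes, and the median was -0.52. ELF4 (AT2G40080), part of the evening complex that represses transcription at night, went from 3.16 and 3.13 CPM to 42.0 and 33.8 CPM in red and from 3.22 and 3.99 CPM to 139 and 109 CPM in white. It rose strongly in both colours and further in white, a difference of -1.5 ± 0.24 (SE, adjusted p = 0.00320) that held in each fit with 1 library left out. RVE7 (AT1G18330), a MYB-like factor related to CCA1, differed by -1.5 ± 0.30 (SE, adjusted p = 0.0140); the call on RVE7 was lost in 4 of the 8 fits that left out 1 library (-1.83 to -1.08), and held without red 6 h dark replicate 1 or red 6 h replicate 1 or white 6 h replicate 1 or white 6 h replicate 2. PRR9 (AT2G46790), a light-induced pseudo-response regulator, had 8.66 and 8.42 CPM in red light and 14 and 72.8 CPM in white light. The 2 white libraries differed from each other by more than the first differed from red, and the difference of -3.01 ± 0.81 (SE, adjusted p = 0.0622) was not called. Without white 6 h replicate 2 it was -1.39, and without white 6 h replicate 1 it was -3.76 and called. Without white 6 h replicate 1 the calls in the list numbered 6 and its median was -0.89, and without white 6 h replicate 2 the median was -0.07. The list had 1 call without red 6 h dark replicate 2, red 6 h replicate 2 or white 6 h dark replicate 1 or 2.

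Of 17 sugar-starvation genes 1 was called lower, against 1.86% of all genes. It was ERD5 (AT3G30775), which degrades proline, at -2.28 ± 0.50 (SE, adjusted p = 0.0240). The call on ERD5 was lost in 5 of the 8 fits that left out 1 library (-2.61 to -2.03). It held without red 6 h dark replicate 1 or white 6 h dark replicate 2 or white 6 h replicate 2. The median of that list was -0.16. Of 20 SR splicing factors 0 were called, with a median difference of -0.07, and SR45A (AT1G07350) had the smallest p at -0.97 (adjusted p = 0.0911). Of 5 phototropism genes 0 were called; RPT2 (AT2G30520), which sets the sensitivity of phototropin signalling, had 266 and 287 CPM in red and 514 and 591 CPM in white light and a difference of -0.88 (adjusted p = 0.107).

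**Figure D4:**
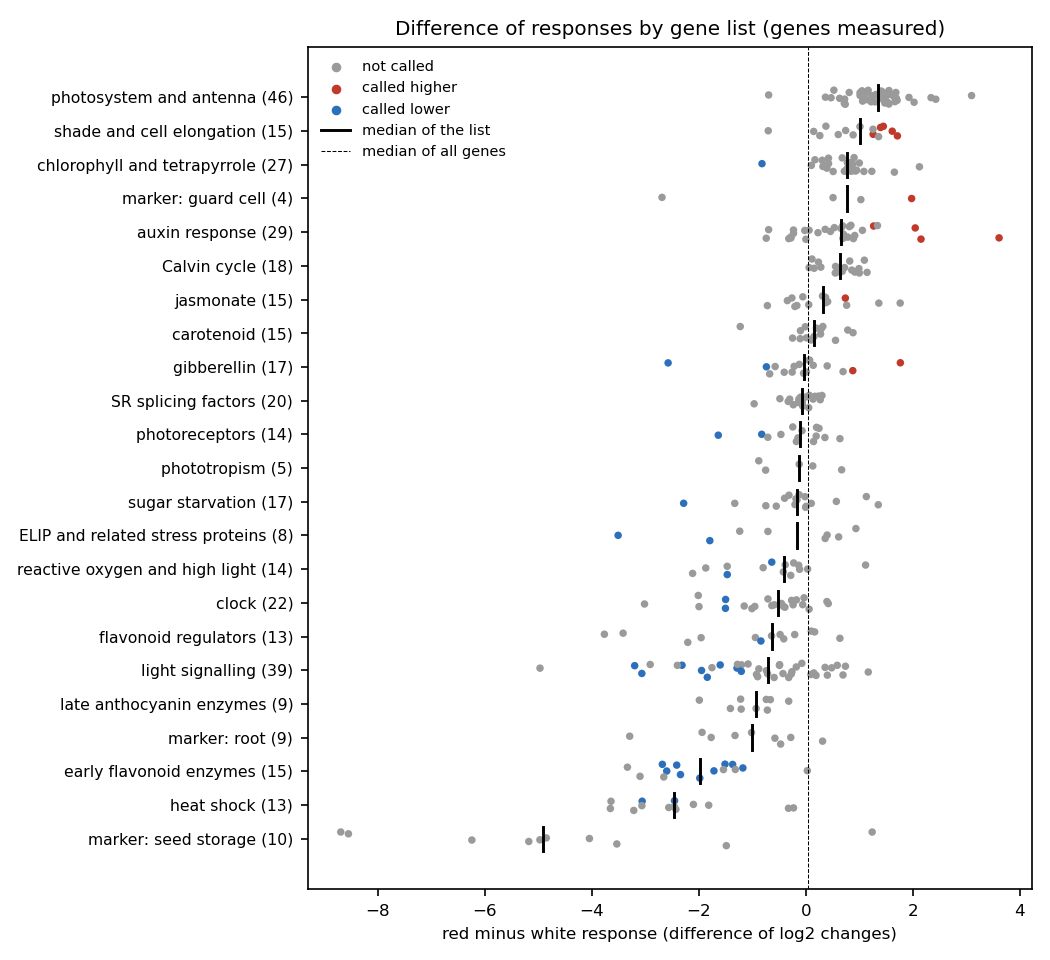
Difference of log2 changes, red minus white, for each measured member of the 23 gene lists, 1 point per gene; black bars are list medians and the dashed line is the median of all genes, 0.04. Blue points are genes called lower, most of which lie in the flavonoid and light-signalling lists, and red points are genes called higher, which lie mostly in the auxin and shade lists.

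Genes of the largest differences lay partly outside these lists. Among genes with a group mean of at least 10 CPM, the 12 with the lowest called differences included 4 that had fewer than 30 reads in each dark library: AT2G22590, UGT84A1 (AT4G15480), MSRB6 (AT4G04840) and MIR163 (AT1G66725). AT2G22590, annotated as a UDP-glycosyltransferase, had 3 and 7 reads in red dark, 2 and 5 reads in white dark, 2.06 and 1.81 CPM in red light and 52.8 and 46.5 CPM in white light. The light groups were far apart without overlap, and the light libraries differed by -4.68 on the log2 scale; the fitted difference of responses, -5.40 ± 0.74 (SE, adjusted p = 0.00122), also depends on the few reads in the dark, and the call on AT2G22590 was lost without red 6 h dark replicate 2 (difference -4.70). UGT84A1 and UGT84A2 (AT3G21560) glucosylate hydroxycinnamates such as sinapate. UGT84A1 had 5 to 16 reads in the dark libraries, 2.29 and 2.13 CPM in red and 44.3 and 42.0 CPM in white light. UGT84A2 went from 21.6 and 23.3 CPM to 34.7 and 37.2 CPM in red and from 26.0 and 26.2 CPM to 283 and 293 CPM in white. Their differences were -4.14 (adjusted p = 0.00835) and -2.78 (adjusted p = 0.000375), without overlap of the light libraries. The call on UGT84A1 was lost without red 6 h dark replicate 1 (difference -4.14) and without red 6 h dark replicate 2 (difference -4.16), and UGT84A2 was called in all 8 fits. UGT84A1 overlaps the antisense gene AT4G15475 by 69 bases. MSRB6, a methionine sulfoxide reductase that repairs oxidized proteins, had 8 and 28 reads in red dark and 6 and 19 in white dark, and 9.12 and 11.9 CPM in red and 121 and 136 CPM in white light. Both groups rose from near 0, the light libraries differed by -3.61, and the difference of responses was -4.37 ± 0.62 (SE, adjusted p = 0.00157); the call on MSRB6 was lost without red 6 h dark replicate 2 (difference -3.22).

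SQE3 (AT4G37760, chr4:17743738-17746697), a squalene epoxidase of sterol synthesis, went from 12.3 and 11.9 CPM to 27.5 and 32.5 CPM in red and from 10.6 and 13.3 CPM to 202 and 227 CPM in white. Replicates lay close together in all 4 groups, and the difference was -2.85 ± 0.22 (SE, adjusted p = 2.64e-05). AT3G57020, annotated as a calcium-dependent phosphotriesterase family protein, had 22.2 and 10.1 CPM in red and 309 and 259 CPM in white light, from 1.97 and 1.72 CPM and 1.76 and 1.29 CPM in the dark. It differed by -4.44 ± 0.52 (SE, adjusted p = 0.000375), and by -5.11 without red 6 h replicate 1. ABCI21 (AT5G44110), an ABC-type ATPase, differed by -2.96 ± 0.56 (SE, adjusted p = 0.0101); the call on ABCI21 was lost without white 6 h dark replicate 2 (difference -2.83).

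The 12 with the highest called differences were mostly genes that white light lowered. RTFL21 (AT1G67265), of the ROTUNDIFOLIA-like family of small peptides, fell from 16.9 and 21.1 CPM to 5.73 and 5.45 CPM in red and from 15.97 and 18.7 CPM to 0.610 and 0.598 CPM in white, a difference of 3.08 ± 0.34 (SE, adjusted p = 0.000269). BBX27 (AT1G68190), a B-box protein, had 34.7 and 41.6 CPM in red and 11.1 and 14.03 CPM in white light, with 38.2 and 46.5 CPM and 52.7 and 56.0 CPM in the dark, and differed by 1.96 ± 0.31 (SE, adjusted p = 0.00323). Red light values lay near those of their control, and white light values lay below every other library. CAX7 (AT5G17860), a cation exchanger, had 24.7 and 38.0 CPM in red and 4.75 and 9.90 CPM in white light, from 25.3 and 32.3 CPM and 33.1 and 36.0 CPM in the dark, and a difference of 2.36 ± 0.48 (SE, adjusted p = 0.0159); the call on CAX7 was lost in 4 of the 8 fits that left out 1 library (1.92 to 2.98), and held without red 6 h dark replicate 2 or red 6 h replicate 1 or white 6 h dark replicate 1 or white 6 h replicate 2. KAT1 (AT5G46240, chr5:18743510-18747406), the inward potassium channel of guard cells, had 18.5 and 17.61 CPM in red and 5.95 and 6.25 CPM in white light against 14.9 and 13.5 CPM and 18.6 and 19.2 CPM in the dark. Its difference was 1.98 ± 0.35 (SE, adjusted p = 0.00759), and of the other 3 guard-cell markers 0 were called. RTFL21, BBX27 and KAT1 were called in each fit with 1 library left out.

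Of the 12, BBX14 and AT3G62550 rose in red light and were not called in white. BBX14 had 13.8 and 20.3 CPM in red dark, 49.9 and 75.3 CPM in red, 25.9 and 35.4 CPM in white dark and 28.7 and 28.3 CPM in white. Red light libraries lay above all others, and the dark levels differed by -0.85 between the series. The difference of responses was 1.99 ± 0.49 (SE, adjusted p = 0.0444), and the call on BBX14 was lost in 7 of the 8 fits that left out 1 library (1.66 to 2.29), and held without red 6 h replicate 1. AT3G62550, annotated as an adenine nucleotide alpha hydrolase-like protein, went from 4.60 and 5.58 CPM to 15.8 and 24.9 CPM in red and from 6.22 and 6.91 CPM to 6.34 and 6.67 CPM in white, with a difference of 2.01 ± 0.39 (SE, adjusted p = 0.0118); the call on AT3G62550 was lost without red 6 h dark replicate 1 (difference 1.86) and without red 6 h replicate 2 (difference 1.64) and without white 6 h dark replicate 2 (difference 1.93). CYP702A5 (AT4G15393), a cytochrome P450, and AT2G26695, a zinc finger protein, fell in white light and differed by 1.85 (adjusted p = 0.0124) and 2.12 (adjusted p = 0.0121). The call on CYP702A5 was lost without red 6 h dark replicate 2 (difference 1.65) and without white 6 h dark replicate 1 (difference 1.78) and without white 6 h replicate 1 (difference 1.71). The call on AT2G26695 was lost in 5 of the 8 fits that left out 1 library (1.86 to 2.35), and held without red 6 h replicate 1 or white 6 h dark replicate 2 or white 6 h replicate 2.

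MicroRNA genes were among the largest differences in each direction, MIR163 lower and MIR167d (AT1G31173) higher in red. Their mature sequences, with the seed (bases 2 to 8) in capitals, do not share a seed.
MIR163, chr1:24884359-24884382, plus strand: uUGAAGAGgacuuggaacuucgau
MIR167d, chr1:11137556-11137577, plus strand: uGAAGCUGccagcaugaucugg
The sequences were read from RefSeq's TAIR10.1 at the annotated mature positions, and the counts here are of the longer transcripts of these genes, not of mature miRNAs. MIR167d, whose annotation names ARF6 (AT1G30330) and ARF8 (AT5G37020) as targets, had 9.77 and 8.53 CPM in red dark and 9.70 and 6.49 CPM in red light, against 11.9 and 9.78 CPM in white dark and 1.41 and 1.49 CPM in white light. It was low only in white light, and the difference was 2.73 ± 0.44 (SE, adjusted p = 0.00334), called in each fit with 1 library left out. ARF6 and ARF8, added after the values were seen, are auxin response factors and had differences of 0.16 (adjusted p = 0.692) and -0.07 (adjusted p = 0.909), neither called. MIR163, whose annotation names methyltransferase genes of the SAMT family as targets, went from 0.503 and 0.156 CPM to 6.72 and 3.31 CPM in red and from 0.351 and 0.441 CPM to 43.2 and 41.1 CPM in white. It rose in both colours and more in white, a difference of -2.77 ± 0.63 (SE, adjusted p = 0.0304); the call on MIR163 was lost in 5 of the 8 fits that left out 1 library (-3.38 to -1.73), and held without red 6 h dark replicate 2 or red 6 h replicate 1 or white 6 h replicate 2.

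Blue light, which had its own light and dark libraries in the series, gave responses between those of red and white for most of these genes. The blue response lay between the other 2 for 23 of the 24 genes of the largest named differences, UGT84A1 being the exception, and for 611 of the 627 called genes (97.4%), against 11141 of all 23011 (48.4%). Because the genes were chosen by a large gap between red and white, a value between them is more frequent by construction. In blue light 8597 genes (37.4%) were called. The blue minus white difference called 14 genes (0.0608%), and DESeq2 called 189; it uses the same white libraries as the red minus white difference, so the counts of 14 and 627 are not independent. Genes that rose in blue, 5243 in number, had a median log2 change of 0.62 in red and 0.69 in white, and 53.1% of them changed less in red. The red and white libraries entered the blue calls only through the scaling and the shared estimate of spread. Of the 3354 that fell in blue, the median was -0.44 in red and -0.66 in white, and 74.0% changed less in red, against 61.4% of all genes tested.

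**Figure D5:**
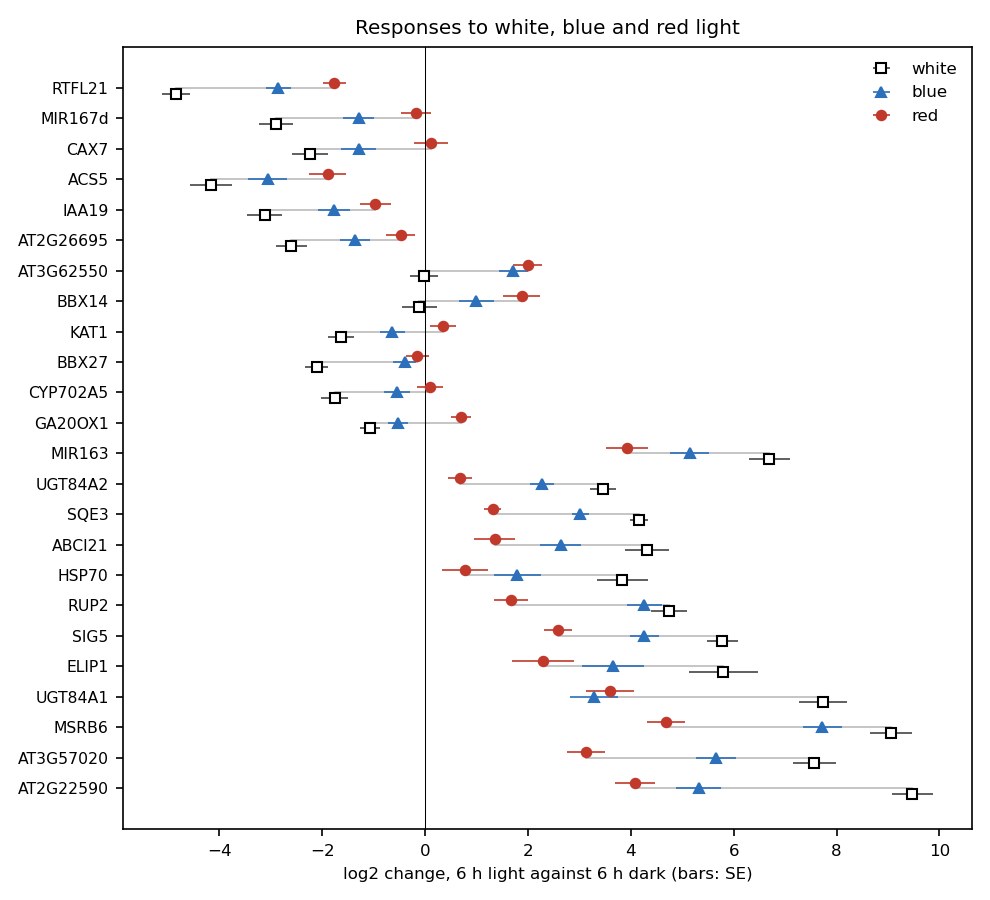
Log2 change from 6 h dark to 6 h light in white (open squares), blue (triangles) and red (circles), with SE bars, for the 12 lowest and 12 highest called differences among genes with at least 10 CPM. Red lies nearer to 0 than white for most genes, and blue lies between them for 23 of the 24.

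Markers of root and seed material had 0 called members in the difference of responses. In the root list 8 of 9 members rose in white light and 0 in red, against 23.2% and 17.62% of all genes. The list had a median difference of -1.01. Its summed level was 238 and 205 CPM in red dark and 239.8 and 200.1 CPM in red light. In the white series it was 193 and 182 CPM in the dark and 274 and 254 CPM in light. EXPA18 (AT1G62980), a root-hair expansin, had 0.215 and 0.809 CPM in red and 2.55 and 1.34 CPM in white light.  The seed storage list had a median of -4.91 with 0 called, and its summed level was 40.4 and 584 CPM in red dark, 51.3 and 25.0 CPM in red, 136 and 7.97 CPM in white dark and 34.7 and 249.8 CPM in white. The values followed single libraries, red 6 h dark replicate 2 and white 6 h replicate 2, and not the groups; SESA5 (AT5G54740), a seed storage albumin, had the smallest p at -6.24 (adjusted p = 0.242). The part of root, seed or guard-cell RNA in the differences above was not tested.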

How the data were processed

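Total RNA of whole seedlings was made into libraries with the TruSeq v2 kit, per the labels' protocols, and read counts per gene were deposited by the authors as 1 table of raw counts. The submitters' processing notes name TAIR10 as the genome build. Which aligner and counting program were used, and whether strand was counted, is not given in the sources used here. Of 33602 genes, the 23011 that passed edgeR's filterByExpr (minimum count 10) were kept, with 99.99% of all counts. All 22 libraries in 11 groups were fitted together, with TMM scaling and 11 residual degrees of freedom, by edgeR's quasi-likelihood test (edgeR 4.0.16, R 4.3.3), and the difference of responses was tested as a contrast with Benjamini-Hochberg adjustment over all genes kept. CPM are the deposited counts scaled here to the TMM-adjusted library size. Fitted log2 changes of genes with few reads in the dark depend on the prior count. Depths ran from 35000731 to 91978902 counts in the 8 libraries, and the median gene differed between replicates of a group by 0.124 to 0.186 on the log2 scale.

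The gene lists and the genes compared were chosen with earlier results of these data known. The genes named are those 12 with the lowest and 12 with the highest called difference among genes with a group mean of at least 10 CPM, up to 3 called members of each list (or the 1 member with the smallest p), and a few chosen for their role; members of lists beyond these are named as part of a count. Names are RefSeq's (TAIR10.1), matched by locus for 32835 of the table's IDs; 767 had no match. Of the 12 genes chosen for their role, 1 is given by its locus, AT3G52740, and was entered in the lists as BIC1. Alternatives were DESeq2 1.42.0, limma-voom (limma 3.58.1), other scalings, filters and sample sets, replicate blocks, counts thinned to 35000731 and each library left out in turn. The procedure was checked on simulated counts. The 1 h libraries and the onset of the blue series entered the shared estimate of spread only.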

Additional observations from a re-analysis of the deposited data

Results flagged for a closer look

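The difference of the red and white responses passed its test for 200 genes in which it was above 0 and 427 in which it was below 0. Among them, 27 genes were called in both colours in opposite directions, 16 that rose in white and fell in red and 11 that rose in red and fell in white, and 21 of these had a group mean of at least 10 CPM. Only those 21 are described below. Each difference comes from the interaction contrast itself.

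Of the genes that rose in white light and fell in red, AT1G16850, annotated as uncharacterized, had 12.2 and 11.6 CPM in red dark, 5.36 and 3.95 CPM in red, 12.7 and 12.4 CPM in white dark and 30.5 and 29.4 CPM in white. All 4 groups were without overlap, the dark ones close together, and its difference was -2.62 ± 0.35 (SE, adjusted p = 0.00102). CYP72A15, a cytochrome P450, had 78.8 and 90.7 CPM in red dark, 60.02 and 67.5 CPM in red, 83.4 and 85.3 CPM in white dark and 220.4 and 267 CPM in white, with a difference of -1.94 ± 0.20 (SE, adjusted p = 0.000177). The other members of this group differed by -2.30 (AT1G72490, uncharacterized), -1.84 (AT3G25190, a vacuolar iron transporter family protein), -1.25 (ZFHD1, a zinc finger homeodomain protein that overlaps an antisense gene by 61 bases), -1.08 (FRD3, a MATE family citrate exporter used in iron transport), -1.06 (AT1G20890), -0.95 (ASG1), -0.94 (AT5G09225, uncharacterized), -0.74 (GID1B, the gibberellin receptor described above), -0.74 (AT1G74780, a nodulin-like transporter), -0.68 (PYD1, of pyrimidine breakdown), -0.57 (AT2G28120, a major facilitator protein) and -0.52 (SFGH, S-formylglutathione hydrolase).

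Of the genes that rose in red light and fell in white, GA20OX1, of gibberellin synthesis, had the largest difference at 1.77 among those with 10 CPM or more. EXPB1, a beta-expansin that loosens cell walls, had 24.7 and 23.3 CPM in red dark, 38.4 and 30.1 CPM in red, 24.1 and 20.3 CPM in white dark and 14.7 and 10.7 CPM in white, a difference of 1.32 ± 0.23 (SE, adjusted p = 0.00642). SQE2, a squalene epoxidase, had 7.39 and 7.71 CPM in red dark, 9.41 and 11.2 CPM in red, 8.08 and 8.64 CPM in white dark and 5.43 and 6.05 CPM in white, a difference of 0.99 ± 0.16 (SE, adjusted p = 0.00322); its relative SQE3 differed in the other direction. The remaining members differed by 0.94 (KICP-02, a microtubule motor family protein), 0.94 (AT3G13690, a kinase), 0.74 (CIPK15, a kinase regulated by calcineurin B-like calcium sensors) and 0.58 (SPPL2, a signal peptide peptidase-like protease). Some of the single-colour edgeR calls above lay close to the threshold. In red light the adjusted p was 0.0426 for CYP72A15, 0.0412 for AT1G20890, 0.0419 for AT5G09225 and 0.0407 for AT2G28120. SFGH had 0.0368 in white, at a log2 change of 0.19. Others lay further below it, such as AT1G16850 at 0.00101 in red and 0.000921 in white. Between the dark libraries AT2G28120 differed by 0.29 and KICP-02 by -0.39, and between the light libraries by -0.28 and 0.56. The cause of these differences was not tested.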

How the results depend on the processing

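Under each alternative 0 of the 627 genes were called the other way, and every called gene kept its sign in the 8 fits that left out 1 library. The count of 627 (200 higher, 427 lower) was 638 with RLE size factors, 606 with library totals alone, 601 without a filter, 698 with a minimum of 5 CPM in 2 libraries, 576 with limma-voom, 628 without organelle genes and 542 with counts thinned to 35000731. It was 1369 with DESeq2 (537 higher, 832 lower, 624 of the 627 among them) and 31 (4 higher, 27 lower) when a log2 difference of at least 1 was tested. With the 8 libraries alone it was 868, of which 414 were higher. Leaving out 1 library gave 276 to 523 calls, 53 to 182 higher and 215 to 341 lower; the fits with fewer samples had fewer degrees of freedom. The direct comparison of light libraries then gave 1296 to 1960 calls, the red response 3938 to 5351, the white response 6405 to 7986 and the dark comparison 0 to 1. DESeq2 called 1 gene between the dark groups and 189 in the blue minus white difference. Of the 49 named genes called, 31 to 42 kept their call without 1 library and 23 did in all 8 fits; 12 of the 49 did when a log2 difference of at least 1 was tested. Of the 16 named genes not called, 8 were called by DESeq2, 5 with the shared replicate block, 6 with the block within series, 3 with the 8 libraries alone and 3 without white 6 h replicate 1.

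Same-numbered libraries deviated together with correlations of 0.0872 to 0.287 over the 6 pairs of groups, 1 of them under 0.1, so replicate numbers were not taken as pairs. With the number as a block shared by all groups 1304 genes were called (498 higher, 806 lower), and with a block within each series 1449 (639 higher, 810 lower); both held all 627, and the blue minus white count was 36 with the shared block. Library totals alone moved the median difference of all genes from 0.04 to 0.09 and the share of higher calls to 45.7%, and in the direct comparison of light libraries to 57.1% from 47.1%. The dark levels of AT2G22590, MSRB6, UGT84A1, MIR163, GA2OX1 and AT3G52740 rest on fewer than 30 reads in each dark library.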

Other observations

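Ranked by p rather than by size, the difference of responses was led by genes that no list above holds; they were looked up after their values were seen. Of the 30 genes with the smallest p, 29 were lower in red and 1 higher, and all 30 were called in each of the 8 fits that left out 1 library. COX15, named for cytochrome c oxidase and needed for the haem of that complex, had 12.6 and 12.3 CPM in red dark, 15.2 and 17.997 CPM in red, 11.8 and 12.3 CPM in white dark and 82.7 and 79.6 CPM in white. White light libraries stood far above the rest, and the difference was -2.34 ± 0.14 (SE, adjusted p = 2.92e-06), the smallest adjusted p of all genes. SDHAF2, an assembly factor of succinate dehydrogenase, the enzyme that links the citric acid cycle to the respiratory chain, went from 21.6 and 20.5 CPM to 37.1 and 37.1 CPM in red and from 20.3 and 21.1 CPM to 151 and 141 CPM in white, a difference of -2.01 ± 0.18 (SE, adjusted p = 7.93e-05). SDH2-1, its iron-sulphur subunit, went from 62.1 and 52.5 CPM to 66.6 and 59.2 CPM in red and from 59.7 and 57.3 CPM to 209 and 202 CPM in white, a difference of -1.68 ± 0.18 (SE, adjusted p = 0.000177). SDH1-1, the flavoprotein subunit, had 142 and 127 CPM in red and 384 and 345 CPM in white light and a difference of -1.34 ± 0.20 (SE, adjusted p = 0.00210). Of the 15 tested genes annotated with succinate dehydrogenase, 4 were called lower and 0 higher, all 15 differences were below 0, and the median log2 change was -0.17 in red and 0.43 in white. Of the 27 annotated with cytochrome c oxidase, 1 was called lower and 0 higher, with a median difference of -0.24. Over all genes 1.86% were called lower, so the count for cytochrome c oxidase was near the background; the groups annotated by these words were chosen after the values were seen and carry no test.

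Of 124 tested genes annotated as UDP-glycosyltransferases, 11 were called lower and 0 higher, against 1.86% and 0.869% of all genes. Below 0 were 51 of the 124 differences, and the median was 0.06. The 11 include UGT78D2, AT1G06000, AT2G22590, UGT84A1 and UGT84A2, already described above. This group and the methionine sulfoxide reductases below, which hold MSRB6, were also looked up after values were seen and carry no test. Among the 11 were UGT73B1 (-1.08 (adjusted p = 0.000761)), UGT73B2 (-1.05 (adjusted p = 0.0216)) and UGT73B3 (-0.80 (adjusted p = 0.0497)), which are neighbouring and closely related genes whose counts may share reads. GPX6, a glutathione peroxidase, went from 75.0 and 73.4 CPM to 146 and 112 CPM in red and from 76.2 and 75.9 CPM to 428 and 407 CPM in white, a difference of -1.66 ± 0.20 (SE, adjusted p = 0.000450). Methionine sulfoxide reductases differed in both directions: of 14 tested, MSRB6, MSRB1 and PMSR1 were called lower and MSRB9 higher, against 1.86% and 0.869% of all genes. MSRB9 had 135 and 147 CPM in red dark, 90.0 and 102 CPM in red, 122 and 106 CPM in white dark and 36.3 and 34.0 CPM in white, a difference of 1.14 ± 0.27 (SE, adjusted p = 0.0365). AT4G15700, annotated as a thioredoxin superfamily protein, was 1 of the 10 genes that fell in red and were not called in white, with log2 changes of -3.46 and 0.21 and a difference of -3.67 ± 0.41 (SE, adjusted p = 0.000279). Its mean was under 10 CPM in each of the 4 groups, so it was not among the genes named by rank.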
